A study of Danio rerio with 4 samples.

Results

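Genes of DNA replication and mitosis were followed by name in hearts of zebrafish (Danio rerio) embryos labelled as tie1 mutants and in those of their siblings. The gene tie1 encodes a receptor tyrosine kinase of endothelial cells. The rule took every gene of the deposited table whose symbol begins with a pattern for replication or mitosis factors, such as mcm, orc, cenp, aurk, bub1 or kif11, for the A, B, D and E cyclins, or for Cdk and Cdc proteins. Names of the cdc42 group, small GTPases and their partners, were left out, which removed 14 genes. This gave 103 of the 16662 genes in the table. Name patterns drawn up for each role placed 31 in S phase and its entry and 46 in mitosis (M phase). Since names decided, the M phase genes also hold the Cdc14 phosphatase genes and the centriole gene cenpj. The other 26 match by name but were placed in neither phase. Examples are the splicing factor gene cdc40, the transcription kinase gene cdk12 and the DNA repair helicase genes mcm8 and mcm9. The name rule itself uses no measured value.

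A cell copies its genome once in S phase and shares the copies out in M phase. In G1, the origin recognition complex and Cdc6 load the ring of Mcm proteins onto DNA. Cyclin D with Cdk4 or Cdk6 and cyclin E with Cdk2 drive the cell into S phase, where Cdc7 and Cdc45 switch the Mcm ring on as a helicase and PCNA clamps the polymerases to the template. Cyclin B with Cdk1 opens mitosis, in which spindle fibres attach to kinetochores built on the centromeres. The Bub and Mad proteins hold back the anaphase promoting complex until every chromosome is attached. In the zebrafish embryo, heart muscle cells and endocardial cells both still divide while the chambers grow, and genes such as mki67 and pcna are commonly used as marks of dividing cells.

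RNA came from pools of hearts cut out by hand at 48 hours post fertilisation (hpf). Of the 4 libraries, 2 came from tie1 mutants, which the labels call tie1 KO, and 2 from siblings, which the labels call tie1 WT. The series' design text counts both wild types and heterozygotes as controls, so these libraries are named siblings, and carriers of the mutant allele may be among them. All 4 carry the transgene Tg(kdrl:eGFP), in which the promoter of the endothelial gene kdrl drives a fluorescent protein. The sources used here do not give the tie1 allele, the size of the pools or whether replicates came from separate clutches, so a p-value reflects only how far these pools differ, which may be technical. In bulk hearts, fewer dividing cells and less of a transcript in each dividing cell cannot be told apart.

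Values are the authors' normalised counts, rounded to whole numbers. The spacing of the values gave an estimated 1770000 to 3240000 assigned reads for each library, with the highest number in sibling 1. The value of tie1 (ENSDARG00000004105) was 123 and 88 in mutant hearts, and 558 and 300 in sibling hearts, lower in both libraries labelled mutant. Heart muscle markers took between 4.92% and 11.6% of the normalised total over nuclear genes, so the defining markers of the labelled tissue were present in each library. Sibling 1 stood apart from the other libraries in the genes of replication and mitosis and in heart muscle and endothelial markers. Results of the replication and mitosis genes are therefore also given without it. Of the 103 members, 92 had a mean value of at least 10 over the 4 libraries and were tested, and they comprised 29 S phase, 40 M phase and 23 other names. The other 11 had values from 0 to 16 in single libraries and are described by their values only.

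Between mutant and sibling hearts, no gene of DNA replication or mitosis passed the test. The smallest adjusted p among the 92 tested members was 0.681, for cdk4 (limma on log2(value + 1), Benjamini-Hochberg adjustment over 12118 genes). The call threshold, an adjusted p of 0.05, was passed by 0% of all genes tested. The mutated gene tie1, though lower in both mutant libraries, did not pass it either, with a limma adjusted p of 0.148. At an unadjusted p of 0.05, 1 member, cdk4, was higher and 0 were lower, against 2.61% of all genes higher and 4.34% lower. The log2 ratio, the difference of the mutant and sibling means of log2(value + 1), had a median of 0.08 over the 29 S phase genes, with 18 higher and 11 lower, and of 0.13 over the 40 M phase genes, with 28 higher and 12 lower. Over all genes tested the median was 0.00, with 6008 genes higher and 6078, or 50.2%, lower. The standard error (SE) of a single member had a median of 0.32 on this scale. The direction rested on 1 library: without sibling 1, the S phase median was -0.08 and the M phase median -0.18, and 19 and 33 of the genes were lower. Without sibling 2, the S phase median was 0.32 and the M phase median 0.36, and 22 and 36 of the genes were higher.

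**Figure D1:**
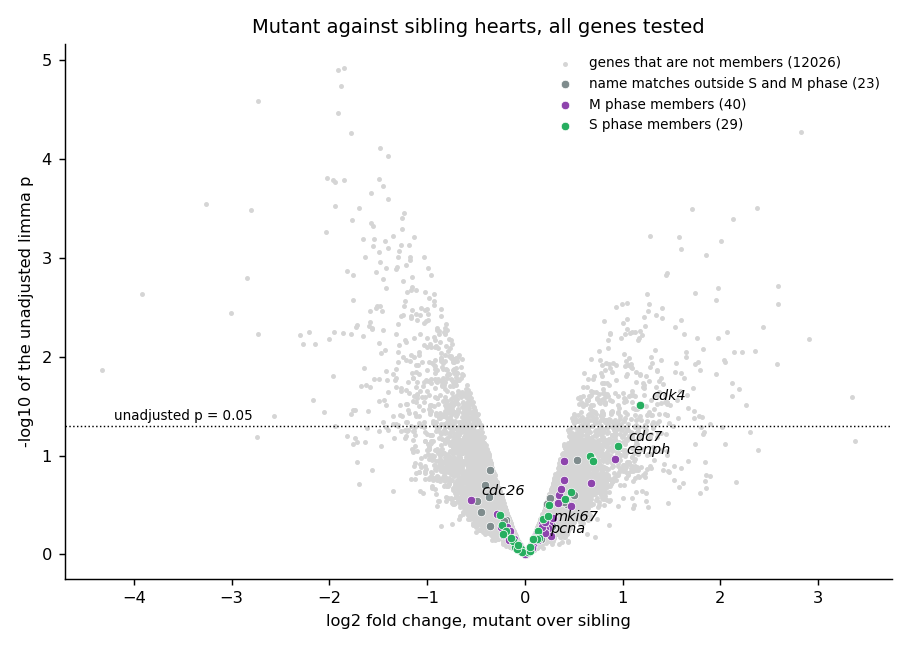
Each point is a gene tested, by its log2 ratio of mutant over sibling (x axis) and the -log10 of its unadjusted limma p (y axis), with S phase members in green, M phase members in purple, other name matches in dark grey and all other genes in light grey. The members lie in the low middle of the cloud, and among them cdk4 alone stands above the dotted line at an unadjusted p of 0.05.

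The Mcm genes encode the helicase that unwinds DNA at the replication fork. The value of mcm2 was 289 and 339 in mutant hearts, and 254 and 360 in sibling hearts, so both mutants lay between the siblings. Its log2 ratio was 0.05 ± 0.24 (SE, n = 2 each), with a 95% interval from -0.49 to 0.59 and a limma adjusted p of 0.983. For mcm5, the values were 237 and 241 against 181 and 245, again between the siblings, and the log2 ratio was 0.18 ± 0.23. The rest of the ring is listed here for completeness and not for its values. The values were 189 and 149 against 111 and 181 for mcm3, and 224 and 204 against 162 and 233 for mcm4. For mcm6 they were 236 and 201 against 147 and 272, and for mcm7 130 and 163 against 127 and 183. Sibling 1 was the lowest library in 6 of the 7 Mcm genes tested, and sibling 2 the highest in 6. The gene in which sibling 1 was not the lowest, mcm10, which helps to activate the helicase, had 22 and 25 against 24 and 28. The value of mcm3l, a copy of mcm3, was 0 and 3 against 1 and 4.

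Origins are marked by the recognition complex and fired by kinases. The origin recognition subunit orc1 had 39 and 37 in mutant hearts, and 21 and 38 in sibling hearts, so sibling 1 alone was low, with a log2 ratio of 0.41 ± 0.35. The subunit gene orc6 had 45 and 24 against 42 and 27, where the first library of each group was the higher. The other subunit genes, orc2, orc3, orc4 and orc5, had values from 9 to 38 and log2 ratios from -0.10 to 0.47. The licensing factor gene cdc6 had 39 and 40 against 34 and 38, a log2 ratio of 0.13 ± 0.28, and cdc6 is among the genes whose groups did not overlap. The gene of the helicase cofactor Cdc45, cdc45, had 27 and 19 against 18 and 39, so the siblings stood on either side of the mutants. The kinase gene cdc7 had 19 and 23 in mutant hearts, and 7 and 15 in sibling hearts. Its groups did not overlap and its log2 ratio was 0.95 ± 0.48, but the adjusted p was 0.753 in limma and the values rest on an estimated 9 to 17 reads in each library. The log2 ratio of cdc7 was 0.45 without sibling 1 and 1.45 without sibling 2.

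The clamp and the enzymes of deoxynucleotide supply serve the running fork. The value of pcna, the gene of the sliding clamp, was 255 and 261 in mutant hearts, and 151 and 358 in sibling hearts, or an estimated 231, 196, 202 and 410 reads. The mutants lay within 6 units of each other with the siblings far below and far above them, and the log2 ratio was 0.15 ± 0.36 with a 95% interval from -0.66 to 0.96. For rrm1, the large subunit of ribonucleotide reductase, the values were 236 and 224 against 195 and 285, and the log2 ratio was -0.04 ± 0.24. The small subunit gene rrm2 (ENSDARG00000020711) had 61 and 35 against 34 and 60, and the thymidylate synthase gene tyms had 27 and 36 against 31 and 41. A second row called rrm2 (ENSDARG00000078069) had 1 and 4 against 1 and 12, and reads that match both rows could be split between them.

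The genes of G1 cyclins and their kinases held the member with the smallest p. The value of cdk4, a partner of cyclin D, was 35 and 43 in mutant hearts, and 10 and 27 in sibling hearts. Both mutants lay above both siblings, with sibling 1 far below the rest. The log2 ratio was 1.18 ± 0.46, the unadjusted p was 0.0308 and the adjusted p was 0.681 in limma, on an estimated 32, 32, 13 and 31 reads. Without sibling 1 the log2 ratio of cdk4 was 0.51, and without sibling 2 it was 1.86. It was 1.33 without mutant 1 and 1.04 without mutant 2. The cyclin gene ccnd1 had 533 and 509 against 442 and 546 and a log2 ratio of 0.08 ± 0.21. Its relative ccnd2a had 125 and 95 against 118 and 86, and ccnd2b had 69 and 44 against 67 and 65, with log2 ratios of 0.11 ± 0.26 and -0.26 ± 0.29. The S phase kinase gene cdk2 had 27 and 25 against 26 and 36, and cdk6 had 114 and 100 against 83 and 97. The cyclin E genes ccne1, with 28 and 25 against 12 and 21, and ccne2, with 32 and 48 against 19 and 31, had both mutants above both siblings. Across the 29 S phase genes, the groups did not overlap in 6 with higher mutant values and in 0 with lower ones, against 15.7% and 18.3% of all genes. The 6 are cdc6, cdc7, cdk4, cdk6, ccne1 and ccne2.

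**Figure D2:**
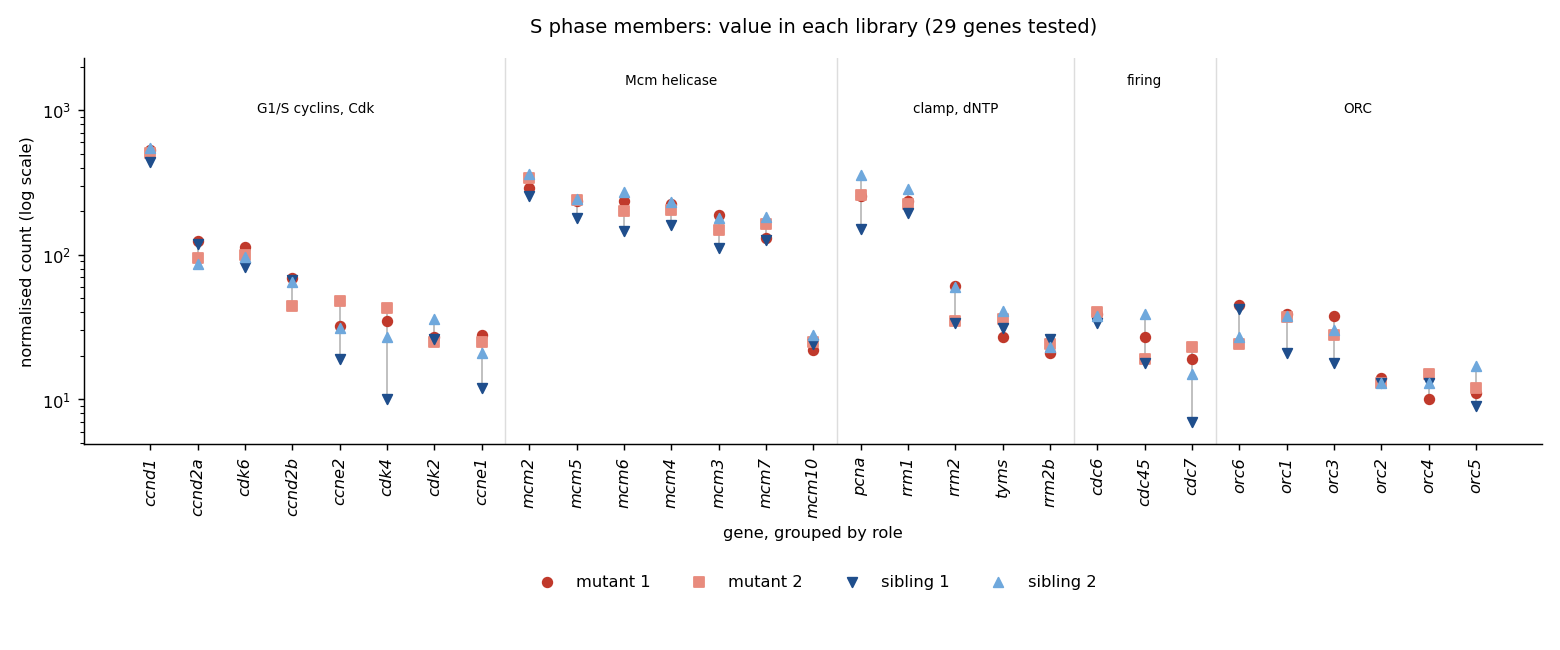
Normalised counts of the 29 S phase genes tested (y axis, log scale) in each library, with mutants in red and siblings in blue, grouped by role along the x axis, and a grey line from the lowest to the highest library. Sibling 1, the dark downward triangle, is the lowest point for 20 genes, and sibling 2, the light upward triangle, is the highest for 13.

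Cyclins A and B with Cdk1 drive the entry into mitosis. The value of cdk1 was 88 and 75 in mutant hearts, and 78 and 104 in sibling hearts, a log2 ratio of -0.15 ± 0.25. Cdc25 phosphatases remove the inhibitory phosphate from Cdk1, and cdc25b had 107 and 101 against 101 and 106, a log2 ratio of 0.01 ± 0.22 with all libraries within 6 units. The cyclin genes ccna2, with 72 and 83 against 46 and 92, and ccnb1, with 63 and 61 against 37 and 64, both had their lowest value in sibling 1 and their highest in sibling 2. The values of ccnb3 were 28 and 33 against 31 and 45, with a log2 ratio of -0.29 ± 0.32, and those of ccnb2 were 19 and 21 against 8 and 18.

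The kinases of mitosis act on the centrosomes, the spindle and the chromosomes. The polo-like kinase gene plk1 had 128 and 133 in mutant hearts, and 87 and 151 in sibling hearts, and a log2 ratio of 0.18 ± 0.29. The centrosome and spindle kinase gene aurka had 52 and 45 against 34 and 42, so the groups did not overlap, with a log2 ratio of 0.35 ± 0.28 and a limma adjusted p of 0.844. The gene of the chromosome passenger kinase, aurkb, had 39 and 35 against 26 and 39, and plk4, the gene of the kinase that starts centriole copying, had 43 and 32 against 29 and 42. In all 4 kinase genes sibling 1 was the lowest library.

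Kinetochores are built on the centromeres and catch the spindle fibres. The value of cenpf, which encodes a large kinetochore protein, was 1600 and 1100 in mutant hearts, and 1189 and 1727 in sibling hearts, so each group held a high and a low library. Its log2 ratio was -0.11 ± 0.28. The kinetochore motor gene cenpe had 791 and 991 against 661 and 1006, and a log2 ratio of 0.12 ± 0.26. The genes ndc80 and nuf2 encode partners in the complex that grips the spindle fibre. Their values were 112 and 83 against 59 and 117, and 90 and 41 against 48 and 105, so in both genes mutant 1 and sibling 2 were high and the other two libraries low. The inner kinetochore gene cenph had 12 and 19 against 8 and 7 and a log2 ratio of 0.93 ± 0.52, with a limma adjusted p of 0.777. These values rest on an estimated 11, 14, 11 and 8 reads. The sibling mean of cenph, 7.5, lay below the minimum mean of 10, which the gene reached through its mutant values. The remaining tested genes, cenpi, cenpj, cenpn, cenpp and cenps, had log2 ratios from -0.16 to 0.29. Among them, cenpj encodes a centriole protein despite its name. A further 6 cenp genes, cenpk, cenpl, cenpo, cenpv, cenpw and cenpx, were below the minimum mean, with values from 0 to 15. Both mutants lay below both siblings in cenpk, with 6 and 5 against 10 and 15, and in cenpv, with 2 and 1 against 3 and 5. They lay above both in cenpw, with 6 and 8 against 5 and 3.

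The spindle checkpoint delays anaphase, and the anaphase promoting complex leads the cell out of mitosis. The Cdc14 phosphatase genes were placed with that complex by name. The checkpoint kinase gene bub1 had 108 and 105 in mutant hearts, and 89 and 107 in sibling hearts, a log2 ratio of 0.12 ± 0.23. The copies bub1bb and bub1ba, which encode the BubR1 pseudokinase, had 32 and 68 against 51 and 60, and 54 and 45 against 38 and 38. Reads could be split between copies, and the ratio of bub1ba to bub1bb ranged from 0.633 to 1.69 over the libraries. The checkpoint genes mad2l1 and bub3 had 21 and 31 against 12 and 27, and 27 and 29 against 17 and 34, both lowest in sibling 1. Of the anaphase promoting complex, the scaffold gene cdc27 had 116 and 117 against 125 and 113 and a log2 ratio of -0.03 ± 0.22, and its activator cdc20 had 83 and 88 against 60 and 91. The subunit genes cdc16 and cdc23 had 27 and 29 against 18 and 31, and 28 and 43 against 29 and 41. The small subunit gene cdc26 had 13 and 8 against 17 and 14, the M phase gene with the smallest p among those with lower mutant values, at -0.55 ± 0.48 and an adjusted p of 0.860 in limma. The phosphatase gene cdc14b had 123 and 145 against 94 and 108, a log2 ratio of 0.40 ± 0.23 and an adjusted p of 0.781 in limma, while its relative cdc14ab had 63 and 68 against 58 and 42.

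Motors move the chromosomes and cut the cell apart, and other proteins coat or untangle the chromosomes. The value of mki67, which encodes the Ki-67 protein that coats mitotic chromosomes, was 1824 and 1735 in mutant hearts, and 1224 and 2010 in sibling hearts. Both mutants lay between the siblings, and the log2 ratio was 0.18 ± 0.27, with a 95% interval from -0.44 to 0.80 and a limma adjusted p of 0.931. The topoisomerase gene top2a, whose product untangles sister DNA, had 575 and 666 against 558 and 744, a log2 ratio of -0.06 ± 0.23. The spindle motor gene kif11 had 300 and 280 against 250 and 432. The genes kif20ba and kif20bb, copies of a cytokinesis motor gene, had 184 and 187 against 159 and 215, and 280 and 256 against 192 and 292. The midzone motor gene kif23 had 122 and 105 against 113 and 120, kif20a had 91 and 105 against 80 and 133, and the passenger protein (survivin) gene birc5a had 24 and 13 against 14 and 20. In 6 of the 8 genes of this role both mutants lay between the siblings. Over the 40 M phase genes the groups did not overlap in 6 with higher mutant values, namely aurka, bub1ba, ccnb2, cdc14ab, cdc14b and cenph, and in 1, cdc26, with lower ones. That is 15% and 2.5% of them, against 15.7% and 18.3% of all genes, so the share with higher values is near that of all genes. The filter bears on these counts, since cenph passed it through its mutant values. It left out cenpk and cenpv, with lower mutant values, and cenpw, with higher ones, whose groups did not overlap either.

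**Figure D3:**
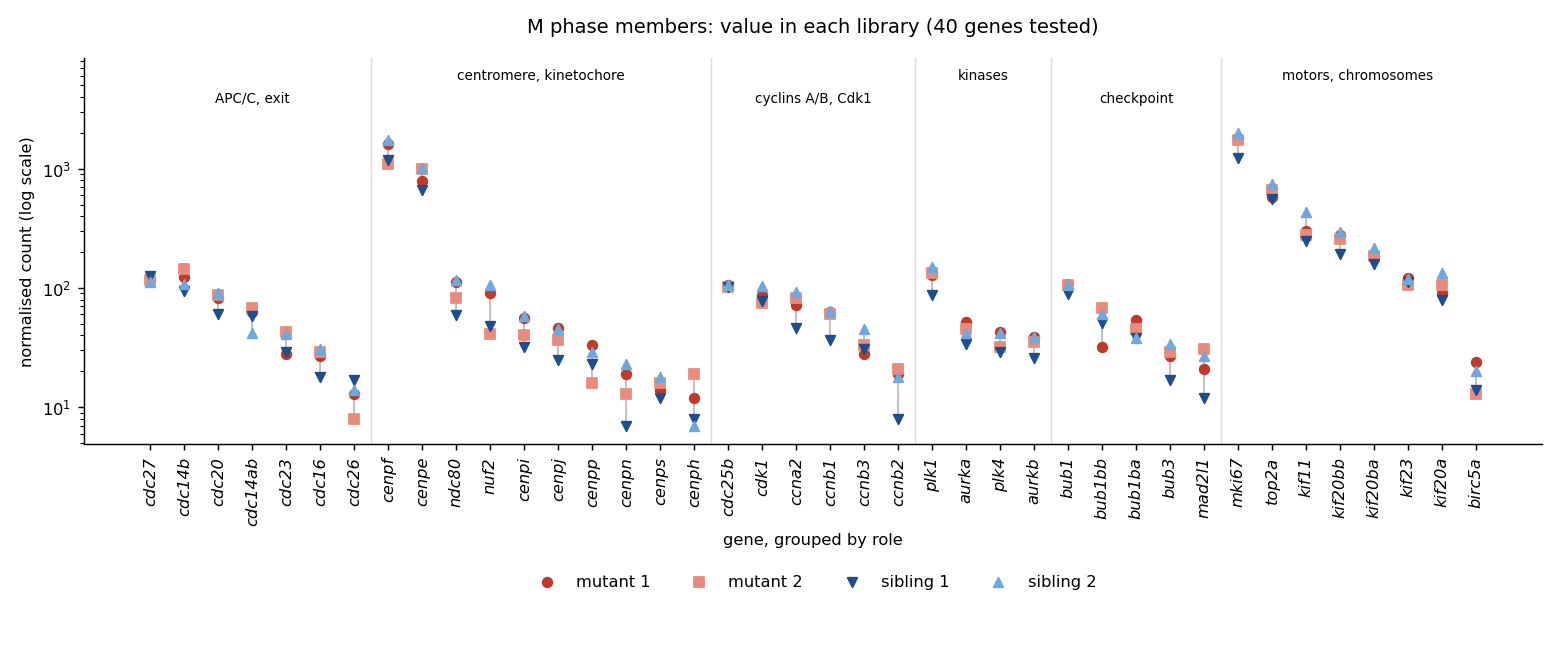
Normalised counts of the 40 M phase genes tested (y axis, log scale) in each library, with mutants in red and siblings in blue, grouped by role along the x axis, and a grey line from the lowest to the highest library. The mutant points lie between the sibling points for 18 of the 40 genes, mki67 and plk1 among them.

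The names outside S and M phase formed the remaining group of the rule. It is not a group free of ties to the cycle, since its genes mad2l1bp and cdk2ap2 are named for partners of Mad2 and Cdk2. The names also include transcription kinases, such as cdk12, with 199 and 236 in mutant hearts, and 179 and 191 in sibling hearts, and cdk13, with 180 and 183 against 161 and 183. Their log2 ratios were 0.23 ± 0.21 and 0.08 ± 0.21. Of the 23 tested, 11 were higher and 11 lower, with a median log2 ratio of 0.00 and a range from -0.49 to 0.54, and cdc123 had equal means. The groups did not overlap in 4 with higher and 4 with lower mutant values, or 17.4% each, near the 15.7% and 18.3% of all genes. Low values left out cdk14, cdk15 and cdk19.

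The sibling libraries differed from each other in most of these genes. Sibling 1 was the lowest of the 4 libraries for 20 of 29 S phase genes and 25 of 40 M phase genes, or 69.0% and 62.5%, against 25.7% of all genes tested. Sibling 2 was the highest for 13 S phase and 21 M phase genes, or 44.8% and 52.5%, against 21.0% of all genes. For the names outside both phases sibling 1 was the lowest in 10 of 23 and sibling 2 the highest in 10, or 43.5% each, so the share highest in sibling 2 was close to that of the S phase genes. Both mutant values lay between the sibling values for 10 S phase and 18 M phase genes, against 13.8% of all genes. These counts were chosen after the values were seen, and the members share libraries, so they describe these 4 pools and carry no test.

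The medians of the gap between the siblings were larger than those between the groups. The median difference of sibling 2 over sibling 1 was 0.52 on the log2 scale for S phase genes and 0.54 for M phase genes, with 23 of 29 and 35 of 40 higher in sibling 2. All genes tested had a median of 0.00, with 47.4% higher in sibling 2. Between the mutants, the median difference of mutant 2 over mutant 1 was -0.07 for S phase and -0.04 for M phase genes. By role, the 10 centromere and kinetochore genes had a median of -0.45, with 3 higher in mutant 2. The medians of the other roles ran from -0.18 to 0.10. Summed, the tested S phase genes came to 3132 and 3002 in mutant hearts, and 2395 and 3408 in sibling hearts. The M phase genes came to 7507 and 7098 against 5739 and 8510. Genes with high values weigh most in such sums. Of the M phase sum, mki67 and cenpf gave 1824 and 1600 in mutant 1, and 1224 and 1189 in sibling 1. As a share of the normalised total over nuclear genes, the M phase sum was 0.527% and 0.499% in mutant hearts, and 0.365% and 0.582% in sibling hearts. The ratio of the M phase sum to the S phase sum varied less, between 2.36 in mutant 2 and 2.5 in sibling 2, so both phases were low together in sibling 1.

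**Figure D4:**
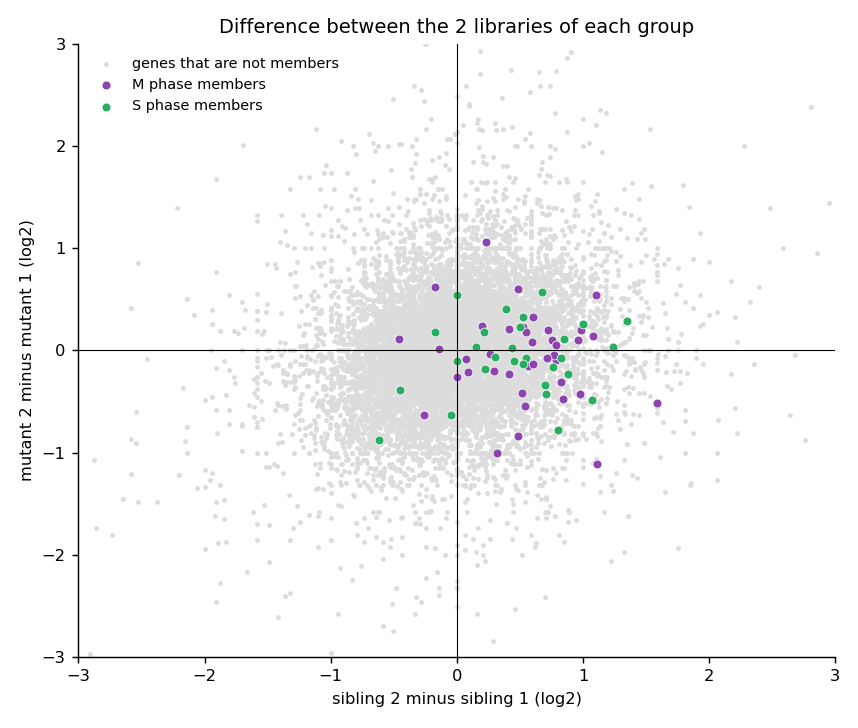
Each point is a gene tested, by its log2 difference of sibling 2 over sibling 1 (x axis) and of mutant 2 over mutant 1 (y axis), with S phase members in green, M phase members in purple and genes that are not members in grey. The plot leaves out 51 genes beyond its axes. Most members lie to the right of 0 on the sibling axis and on both sides of 0 on the mutant axis.

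Markers of tissues in the pools also differed between the libraries. Heart muscle markers, 22 rows of all 21 genes listed, had a summed value of 109907 and 70067 in mutant hearts, and 183164 and 110886 in sibling hearts. Endothelial and endocardial markers, 23 tested of 25 listed with tie1 among them, summed to 5209 and 3372 against 8206 and 5272. Both sums were highest in sibling 1, the library in which the members were lowest. Of the 22 heart muscle rows 0 were higher in sibling 2 than in sibling 1, and of the 23 endothelial genes 1 was. Between the groups, 19 of the 22 heart muscle rows were lower in the mutants, 6 of them at an unadjusted limma p under 0.05, with a median log2 ratio of -0.28. Of the 23 endothelial genes 21 were lower, 9 of them at that p, with a median of -0.54. Among all genes tested, 4.34% were lower at that p. Both mutants lay below both siblings in 9 of the 22 rows and 12 of the 23 genes, against 18.3% of all genes. They lay above in 1 and 0, against 15.7%. The median log2 deviation from a gene's own mean was 0.04 and -0.47 in mutants, and 0.38 and -0.11 in siblings, for heart muscle. For endothelium it was -0.04 and -0.55 against 0.6 and -0.02, so in both sets mutant 1 was near or above sibling 2. These contrasts are not given without sibling 1. The S phase sum was 2.85% and 4.28% of the heart muscle sum in mutant hearts, and 1.31% and 3.07% in sibling hearts. Epidermal markers, 16 of 17 listed, summed to 17356 and 21702 in mutant hearts, and 17518 and 22897 in sibling hearts, and 15 of the 16 were higher in sibling 2 than in sibling 1. Between the groups, 2 of the 16 were higher in the mutants at an unadjusted limma p under 0.05 and 0 lower, against 2.61% and 4.34% of all genes. Of the listed genes in the table, the endothelial gene plvapa was at 0, in mutant 1, and the others were above 0 in every library. The part of these tissues in the values of the members was not tested.

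Markers of tissues outside the heart wall were also measured. Erythrocyte markers, 23 rows of 22 genes out of 24 listed, summed to 5634 and 5296 in mutant hearts, and 14638 and 12617 in sibling hearts. Of the 23 rows, 22 were lower in the mutants, 20 of them at an unadjusted limma p under 0.05, against 4.34% of all genes. Skeletal muscle markers, 15 tested of 17 listed, summed to 801 and 1378 against 2133 and 2121, with myog at 0 in mutant 1. At that p, 8 of the 15 were lower and 0 higher. Neural markers, 10 tested of 17 listed, summed to 928 and 439 against 531 and 261, while ascl1a, which was not tested, was at 0 in sibling 1. All 10 had higher mutant means, 4 of them at that p, against 2.61% of all genes. Both mutants lay above both siblings in 3 of the 10, against 15.7% of all genes. The median log2 deviation from a gene's own mean was 1.5 in mutant 1 and 0.02 in mutant 2. It was -0.01 in sibling 1 and -0.83 in sibling 2, so mutant 2 was level with sibling 1. The part of these markers in the values of the members was not tested either. The estimated read number was highest in sibling 1, and mitochondrial ribosomal RNA took 43.4% and 37.6% of the mutant totals and 32.9% and 30.4% of the sibling totals. With the totals equalised over nuclear genes, the S phase median became 0.17 and the M phase median 0.22, while the median of all genes moved to 0.09.

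**Figure D5:**
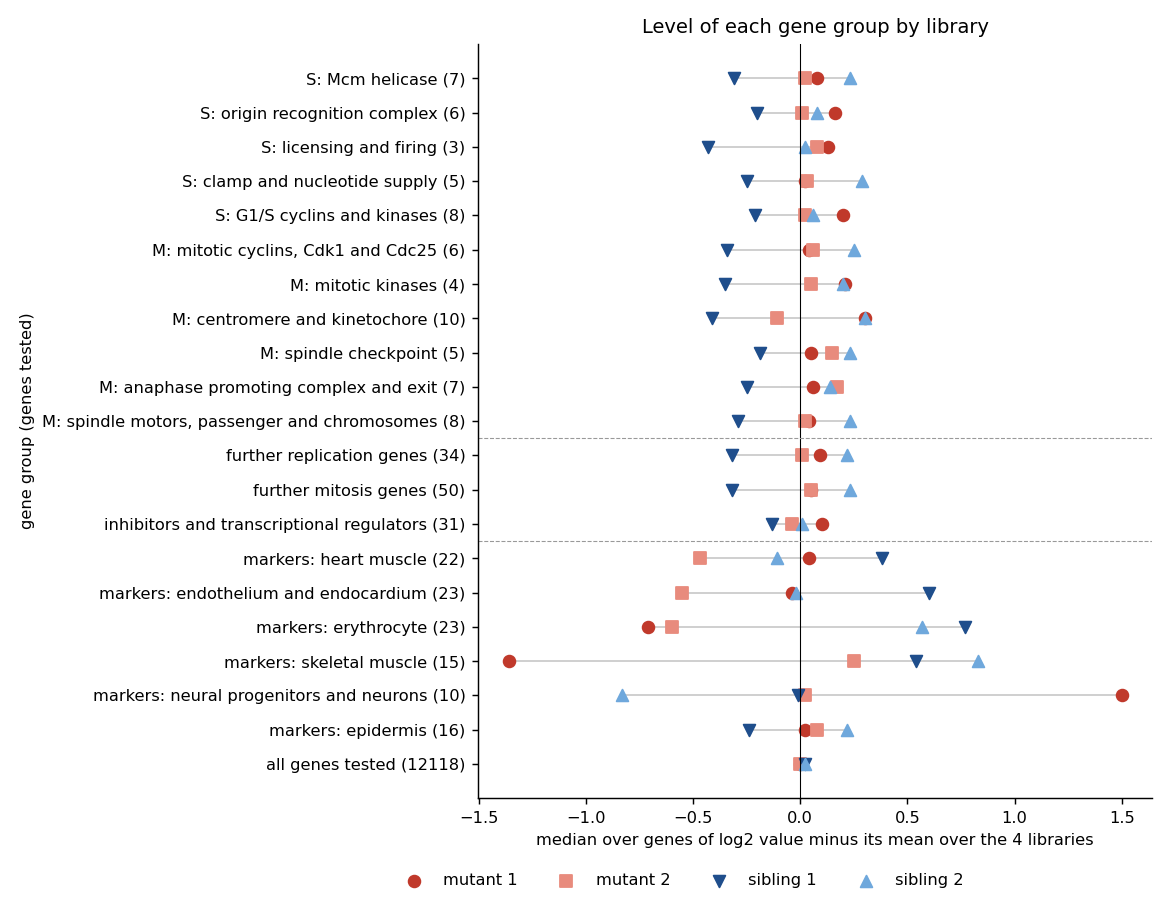
Median over the genes of a group of the log2 value minus the gene's own mean over the 4 libraries (x axis), for each role of the members, the further lists and the tissue markers (y axis, with the number of genes tested). Sibling 1 is the lowest library in every role of S and M phase and the highest for heart muscle, endothelial and erythrocyte markers.

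Other genes of the same pathways are not reached by the name rule. Of 42 further replication genes listed, 34 were tested, and these had 20 higher and 14 lower in the mutants and a median log2 ratio of 0.09. At an unadjusted limma p of 0.05, 0 were higher and 0 lower, against 2.61% and 4.34% of all genes. The genes with the highest mean values were the DNA ligase gene lig1, with 450 and 416 against 316 and 464, and uhrf1, which is needed to keep DNA methylation through replication, with 275 and 275 against 239 and 298. The smallest p belonged to the polymerase alpha subunit gene pola2, with 49 and 52 against 32 and 40 and 0.48 ± 0.28, and to the replication inhibitor gene gmnn, with 39 and 32 against 21 and 32. In the other direction they belonged to the primase gene prim2, with 25 and 16 against 25 and 42 and -0.67 ± 0.39, and to the helicase cofactor gene gins4, with 18 and 21 against 17 and 29. Sibling 1 was the lowest library for 24 of the 34, against 25.7% of all genes.

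Of 56 further mitosis genes listed, 50 rows were tested, and these had 32 higher and 18 lower, with a median log2 ratio of 0.08. At an unadjusted limma p of 0.05, 1 was higher and 0 were lower, against 2.61% and 4.34% of all genes. The higher gene was spc25, a partner of ndc80 and nuf2, with 41 and 35 in mutant hearts, and 12 and 27 in sibling hearts. Its log2 ratio was 1.03 ± 0.42 and its adjusted p was 0.709 in limma. The checkpoint gene zwilch had 18 and 17 against 7 and 9, a log2 ratio of 1.05 ± 0.47. Both sibling values of zwilch lay below the minimum mean of 10, which the gene reached through its mutant values. The kinetochore genes ska3 and kif2c had 24 and 20 against 25 and 40, and 62 and 63 against 68 and 97, and both mutants lay below both siblings in each. The spindle pole gene aspm had 795 and 712 against 597 and 920, and the microtubule gene ckap5 had 390 and 484 against 387 and 463. Of the 50, 49 were higher in sibling 2 than in sibling 1, against 47.4% of all genes. In 38 the lowest value was in sibling 1, against 25.7% of all genes.

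A further list held genes that hold back the cycle or direct its transcription. Of 41 listed, 31 were tested, with 18 higher and 13 lower and a median log2 ratio of 0.11. Sibling 1 was the lowest library in 12 and sibling 2 the highest in 3, against 25.7% and 21.0% of all genes. At an unadjusted limma p of 0.05, 3 were higher and 1 lower, against 2.61% and 4.34% of all genes. The E2F partner gene tfdp1b had 61 and 69 in mutant hearts, and 22 and 43 in sibling hearts, a log2 ratio of 1.05 ± 0.35 and an adjusted p of 0.586 in limma. The S phase activator gene e2f3 had 56 and 73 against 36 and 40, at 0.74 ± 0.28 and a limma adjusted p of 0.673. The third, tfdp2, another E2F partner gene, had 49 and 43 against 24 and 32 and was named after its values were seen. The gene with a lower value was ccng2, the gene of a cyclin linked to arrest, with 51 and 60 against 97 and 77, at -0.63 ± 0.26 and an adjusted p of 0.709 in limma. Those with the highest means, the antiproliferative gene btg1 and the cyclin G1 gene ccng1, had 885 and 859 against 1077 and 1122, and 417 and 408 against 462 and 451. Their log2 ratios were -0.33 ± 0.20 and -0.15 ± 0.20, with both mutants below both siblings in each gene.

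The members are spread over 24 chromosomes of the GRCz11 genome. On chromosome 12, ndc80 (positions 10353333 to 10365969) and mki67 (10366617 to 10381282) lie on the minus strand with 647 bases between them, and top2a (10706772 to 10740236) lies on the plus strand of the same region. The gene orc1 (chromosome 6, 33931095 to 33950917) ends 28605 bases before tie1, the mutated gene, begins. On chromosome 21, cdc23, of the anaphase promoting complex, overlaps the motor gene kif20a by 1657 bases on the opposite strand. In all, 17 members overlap another gene of the table, 14 on the opposite strand and 3 on the same strand. Since the sources used here do not give the strand setting of the counting, reads in such overlaps cannot be assigned with certainty. For cdk4 the overlap is 89 bases. The longest is that of cenpv, which was not tested, with pigl (31245 bases). Other long ones include cdc45 with ufd1l (15384 bases), cenpp with ecm2 (11844), mcm3 with stmn4 (10098) and orc6 with mylk3 (5008). All of these are on the opposite strand. Those on the same strand are mcm3ap with lss (2010 bases), kif20ba with ankrd1a (1299) and cdc27 with kansl1b (492).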

How the data were processed

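The data were 4 libraries of pooled zebrafish hearts at 48 hpf, made from 2 ng of total RNA with a stranded kit for small inputs, per the labels' protocols. FastQC, STAR 2.4.0a, Subread with featureCounts 1.4.5-p1 and the build GRCz11 are named, without roles, in the submitters' processing notes. The authors deposited 1 table of normalised counts rounded to whole numbers, treated here as a score with no fixed unit. The sources used here do not say how they were normalised. The spacing of the values fitted read counts divided by 0.904, 0.75, 1.34 and 1.15 in mutant 1, mutant 2, sibling 1 and sibling 2. Where the divisor is above 1, neighbouring counts merge, so no count test was used and depths are estimates. Values were analysed as log2(value + 1), which understates the change of low values. The filter kept 12118 genes whose mean was at least 10. These were fitted with limma 3.58.1 in R 4.3.3 (mean-variance trend, Benjamini-Hochberg adjustment). The fit was also run on simulated, independent normal values. These held no shift shared by the genes of a library, so that run does not bear on such shifts here. Groups were taken from the sample titles. A two-sided exact permutation test of 2 against 2 cannot go below 0.333, so none was used. Errors are standard errors of log2 ratios. Members, roles and lists were chosen with earlier results of these data known. Of each role, the 2 members with the highest mean are named, with every member at an unadjusted p under 0.05 and the 2 with the smallest p in each direction in each phase. The further lists follow the same rule for the highest mean and the smallest p. Other members are given for completeness or as examples. Values also scale with transcript length, so levels are not compared between genes. Alternatives were another pseudocount, other filters, scalings and limma settings, a replicate block and leaving out each library.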

Additional observations from a re-analysis of the deposited data

How the results depend on the processing

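No member passed the threshold in any alternative tried, and the smallest adjusted p of a member over them was 0.244 in limma, with the replicate block. With 2 libraries per group, the SE of a log2 ratio has a median of 0.32, which limits what can be seen. The log2 ratio of a named member turned sign 38 times, in 21 of the 31 named members, and 13 turned without sibling 1. These came from rescaling or leaving out a library. The filters, the limma settings and the block leave a log2 ratio as it is by construction, so they bear only on its p. The causes were not tested.

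Mutant and sibling libraries share the numbers 1 and 2 in the labels. The deviations of same-numbered libraries correlated at 0.198 across genes over 2 pairs, and no label says what a number marks, so whether the numbers pair the libraries is not known and the fit without the block is reported. With the replicate block, 19 genes of all tested passed the threshold higher and 76 lower, and at an unadjusted p of 0.05 the counts were 565 and 814.

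The S phase median ranged from -0.08 to 0.32, the M phase median from -0.18 to 0.36 and their difference from -0.04 to 0.10 when 1 library was left out. The S phase genes higher in the mutants then numbered 10 to 22 and those lower 7 to 19, and the M phase genes 7 to 36 and 4 to 33. Each of these fits left 1 library in a group, so no conclusion is drawn from the counts by p that follow. They are out of 92 members and 12118 genes tested. For both, the highest count of higher genes came without sibling 2, where sibling 1 was the only sibling library. Members at an unadjusted p of 0.05 numbered 0 to 7 higher and 0 to 1 lower, and all genes 185 to 352 higher and 154 to 394 lower.

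With totals equalised without mitochondrial genes, 7 S phase genes were lower, 505 genes were higher at an unadjusted p of 0.05, and 1 gene passed the threshold higher and 3 lower. With a minimum mean of 50, which tests 5411 genes with 12 of S and 22 of M phase, the difference of the medians was 0.05. Of the S phase genes 9 were then higher and 3 lower, 10 were lowest in sibling 1 and 8 highest in sibling 2, and of the M phase genes 13 were higher and 14 lowest in sibling 1. Of members 0 had an unadjusted p of 0.05, of all genes 110 were higher and 327 lower at it, and 1 and 12 passed the threshold. Without a filter, 508 genes were higher at an unadjusted p of 0.05. The robust setting gave 1 and 15 genes past the threshold. Without the trend, 2 of 92 members were higher at an unadjusted limma p of 0.05 and 0 lower. Of all 12118 genes, 378 were then higher and 422 lower.

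With totals equalised, the log2 ratio was 0.06 for cdc27, 0.05 for orc6, 0.05 for rrm1 and 0.03 for top2a. With quantile normalization it was 0.03 for cdc27, 0.06 for cenpf, 0.02 for rrm1 and 0.07 for top2a.
Without 1 library in turn, the log2 ratio ranged from -0.01 to 0.26 for bub1, -0.77 to 0.29 for bub1bb, -0.07 to 0.24 for ccnd1, -0.11 to 0.34 for ccnd2a, -0.57 to 0.06 for ccnd2b, -0.03 to 0.05 for cdc25b, -0.10 to 0.04 for cdc27, -0.76 to 0.32 for cdc45, -0.35 to 0.06 for cdk1, -0.01 to 0.17 for cdk13, -0.18 to 0.42 for cenpe. It ranged from -0.38 to 0.16 for cenpf, -0.20 to 0.30 for mcm2, -0.04 to 0.40 for mcm5, -0.18 to 0.54 for mki67, 0.00 to 0.83 for orc1, -0.47 to 0.41 for orc6, -0.47 to 0.77 for pcna, -0.21 to 0.58 for plk1, -0.31 to 0.24 for rrm1 and -0.27 to 0.15 for top2a. Without turning sign, it ranged from 0.51 to 1.86 for cdk4 and 0.45 to 1.45 for cdc7.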

Other observations

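Histones package the newly copied DNA, and the genes with linker and core histone names were looked at after their values were seen. Of 16 tested, 11 were higher and 5 lower in the mutants, with a median log2 ratio of 0.41. In 14 the lowest value was in sibling 1, against 25.7% of all genes. At an unadjusted limma p under 0.05, 0 were higher and 1 lower, against 2.61% and 4.34% of all genes. The SE of a single histone gene had a median of 0.46. The mutants also differed from each other, with a median of 0.63 for mutant 2 over mutant 1 and 14 of the 16 higher in mutant 2. Summed, the 16 came to 635 and 796 in mutant hearts, and 762 and 907 in sibling hearts. The lowest sum was thus in mutant 1, unlike the lowest value of most single genes.

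Genes that the table's own annotation places in the KEGG pathway Cell cycle, and that are not members, were split evenly. Of 74 tested, 37 were higher and 37 lower, with a median log2 ratio of 0.01. Of the 74, 27 were lowest in sibling 1, against 25.7% of all genes. The number higher in sibling 2 than in sibling 1 was 46, against 47.4% of all genes, with a median difference of 0.13. Of 24 tested genes of the KEGG pathway DNA replication that are not members, 14 were higher and 10 lower, with a median of 0.05. In these, 15 were lowest in sibling 1 and 21 were higher in sibling 2 than in sibling 1. Some of these genes are also in the further lists of replication and mitosis genes.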
